A study of Mus musculus with 8 samples.

Results

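The genes described here are the 32 mouse genes of a list of glycolysis and hypoxia genes, 22 of them for glycolysis and 10 for oxygen sensing or the hypoxia response. They were taken by symbol from a table of 19673 listed genes, where each of the 32 was found and each passed the minimum mean of 10 for testing, as did 16120 genes in all. The libraries were bulk RNA-seq of live CD45+CD3e+CD8+ cells sorted from tumours of Py8119, a mouse mammary tumour cell line. One group came from Mtdh KO hosts (metadherin knockout, 4 libraries) and the other from wild-type hosts (WT, 4 libraries), each with 4 biological replicates. Every tumour was grown from injected Py8119 cells, so the genotype is that of the host. Strain, age, sex, the knockout allele and its tissue range are not given in the sources used here. The question put to these genes is whether RNA for sugar breakdown and for the response to low oxygen differs in tumour CD8 T cells between Mtdh KO and WT hosts.

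Glycolysis turns glucose into pyruvate in the cytosol, and activated T cells raise glucose uptake and export much of the pyruvate as lactate. When oxygen is scarce, prolyl hydroxylases of the Egln family stop marking the alpha subunits Hif1a and Epas1 for destruction. These then pair with Arnt and bind the core ACGTG or GCGTG in the DNA of target genes, among them glucose transporters, glycolytic enzymes and Vegfa. In T cells, antigen receptor signalling also raises Hif1a, so the programme is active there with oxygen present.

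Promoters are shown for the members with the smallest limma p in each direction, 3 with a positive and 2 with a negative KO over WT difference, none of which passed the adjusted test below. Each is the 250 bases before the first start that RefSeq lists on GRCm38.p6, in the 5′ to 3′ direction of the gene. They are chr4:119108495-119108744 (plus strand) for Slc2a1, chr12:73907617-73907866 (plus) for Hif1a, chr11:120948817-120949066 (plus) for Slc16a3, chr10:59951771-59952020 (minus) for Ddit4 and chr15:98092339-98092588 (plus) for Pfkm. Capitals mark the hypoxia-inducible factor core ACGTG or GCGTG, searched on both strands, so that CACGT and CACGC are the same cores read on the other strand. A run CACGTG, which other transcription factors also bind, counts as 2 overlapping cores.
Slc2a1: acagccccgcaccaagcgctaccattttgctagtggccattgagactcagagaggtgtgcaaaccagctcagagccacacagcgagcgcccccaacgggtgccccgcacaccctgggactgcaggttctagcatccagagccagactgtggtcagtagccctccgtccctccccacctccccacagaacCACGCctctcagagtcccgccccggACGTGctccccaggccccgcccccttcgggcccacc
Hif1a: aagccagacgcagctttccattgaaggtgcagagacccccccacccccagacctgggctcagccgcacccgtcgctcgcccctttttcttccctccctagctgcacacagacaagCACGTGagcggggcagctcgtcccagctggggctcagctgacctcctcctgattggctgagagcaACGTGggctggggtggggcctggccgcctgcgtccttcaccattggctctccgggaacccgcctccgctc
Slc16a3: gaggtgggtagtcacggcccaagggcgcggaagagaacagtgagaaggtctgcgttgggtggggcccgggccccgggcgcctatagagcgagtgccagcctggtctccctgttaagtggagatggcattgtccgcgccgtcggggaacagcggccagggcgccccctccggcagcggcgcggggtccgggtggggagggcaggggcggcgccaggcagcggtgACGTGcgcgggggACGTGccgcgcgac
Ddit4: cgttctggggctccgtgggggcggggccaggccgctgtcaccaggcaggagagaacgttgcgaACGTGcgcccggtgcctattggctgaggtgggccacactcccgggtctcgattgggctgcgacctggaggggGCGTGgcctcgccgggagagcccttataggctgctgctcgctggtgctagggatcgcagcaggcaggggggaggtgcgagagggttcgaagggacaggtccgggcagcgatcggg
Pfkm: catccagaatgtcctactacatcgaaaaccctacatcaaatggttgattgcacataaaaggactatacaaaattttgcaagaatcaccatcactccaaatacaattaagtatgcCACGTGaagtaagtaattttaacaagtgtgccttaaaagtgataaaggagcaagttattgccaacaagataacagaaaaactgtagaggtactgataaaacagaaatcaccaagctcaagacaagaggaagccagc
Hif1a held 3 cores in this window, and Slc2a1, Slc16a3, Ddit4 and Pfkm held 2 each. The 2 of Pfkm are 1 run CACGTG, and the windows of its other listed starts held 2, 1 and 0 cores. Which start these cells use was not examined. Of the 32 members, 30 matched the promoter table, and Slc2a3 and Epas1 are named only. The first listed start of 23 of these 30 members (76.7%) had a core, against 5846 of 10534 tested genes (55.5%) and 12679 of 32851 promoters in the table (38.6%). The member promoters were also richer in G and C, with a median of 63.4%, against 59.6% in tested genes and 52.4% in the whole table. Over any listed start, 27 of 30 members (90%) and 6311 of 10534 tested genes (59.9%) had a core. These matches describe letters only and do not show binding.

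The deposited values are per-gene signals that the authors normalized, and 1 read was worth 0.788 to 1.30 of them, for an estimated depth of 16400000 to 29600000 reads per library. The distinct cDNA fragments behind those reads, estimated from the share of undetected genes, were 113000 in KO library 2 at the fewest and 643000 in WT library 3 at the most. A single fragment was worth 153 in the first of these and 23.6 in the second. By this estimate, values below about these sizes rest on single molecules. It takes each gene's level from the other libraries, so true absence from a library also counts as lost fragments. Small nuclear and nucleolar RNAs held 27.6% to 35.2% of each library. Mtdh itself (ENSMUSG00000022255, chr15:34082840-34145770 on mm39) had 5118, 4622, 2538 and 3341 in KO libraries 1 to 4, against 9324, 12745, 6407 and 7974 in WT libraries 1 to 4. The groups did not overlap: KO over WT was -1.23 on the log2 scale (SE 0.25) with a limma adjusted p of 0.0400, and the exact two-sided permutation p was 0.0286, the smallest that 4 against 4 allows. Mtdh RNA was thus lower in KO libraries but not absent, and values per gene do not show which exons the reads cover. The limma call was lost with a pseudocount of 0.1 (adjusted p = 0.0740), a minimum mean of 50 (adjusted p = 0.0945), a replicate block (adjusted p = 0.0627) and when KO replicate 2, 3 or 4 or WT replicate 1 or 2 was left out (highest adjusted p = 0.241). Cd3 and Cd8 genes were present, but so were macrophage genes, which are set out with the library values further on. In bulk RNA, fewer cells of a type and less RNA per cell cannot be told apart.

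None of the 32 members passed the limma test at an adjusted p of 0.05, where 38 of all 16120 genes tested (0.236%) did, 34 of them higher in KO (0.211%) and 4 lower (0.0248%). At an unadjusted p under 0.05, 5 members were higher in KO libraries (Slc2a1, Hif1a, Slc16a3, Vegfa and Pfkp) and 0 were lower, against 518 genes (3.21%) higher and 562 (3.49%) lower over the whole table. Log2 fold changes of KO over WT, on the log2(value + 1) scale used throughout, were above 0 for 20 members and below 0 for 12, with a median of 0.076. With scaling to the sum without small RNAs, 16 members were above 0. Over all genes tested the median was -0.12 and 43.4% were above 0. That reference median also moved, from -0.16 with the same scaling to -0.031 without KO replicate 2. The member medians there were 0.027 and 0.098. Every KO library was above every WT library for 2 members, Pfkp and Slc16a3, and below for 0, while 2.02% of all genes tested were above and 2.09% below. Adjusted p-values of the members ran from 0.375 for Slc2a1 to 0.991.

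**Figure D1:**
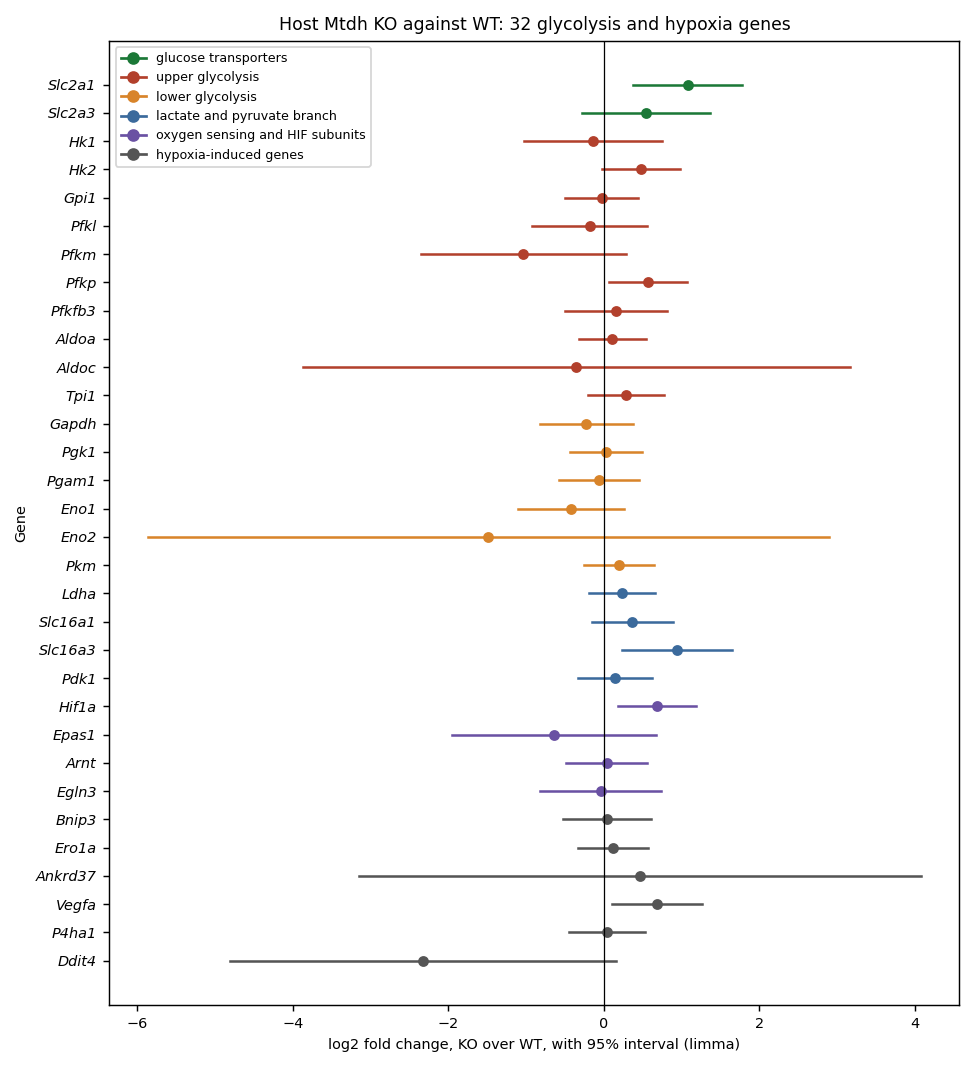
Log2 fold change of each member, KO over WT, with its 95% interval from limma (4 libraries per group), grouped by role. Intervals of 5 members lie above 0 before adjustment, and those of Aldoc, Eno2, Ankrd37 and Ddit4, which have near-zero values in some libraries, are the widest.

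The glucose transporter Slc2a1 (GLUT1, ENSMUSG00000028645, chr4:118965908-118995180 on mm39) carries glucose into cells and showed the smallest p of the members. Its normalized values were 29179, 33820, 7636 and 23953 in KO libraries 1 to 4, against 9241, 12972, 7481 and 10097 in WT libraries 1 to 4. KO libraries 1, 2 and 4 were above every WT library, while KO library 3 lay among the WT libraries, so the groups overlapped. Means with SD over 4 libraries were 23647 ± 11410 (KO) and 9948 ± 2291 (WT), a 2.11-fold ratio on the fitted scale (log2 1.08, SE 0.33, 95% interval 0.38 to 1.78, limma adjusted p = 0.375). Without KO replicate 3 it was 1.56 on the log2 scale (limma adjusted p = 0.000633), and with limma weights for each library it was 1.16 (adjusted p = 0.0313). These were the settings under which a member was called. Slc2a3 (GLUT3, ENSMUSG00000003153, chr6:122704768-122778599), a second transporter of high glucose affinity, had 425, 683, 959 and 654 in KO libraries, against 580, 314, 411 and 537 in WT libraries. Here KO library 3 was the highest of the 8, the reverse of its place for Slc2a1, and the groups overlapped (log2 0.54, SE 0.39, limma adjusted p = 0.783).

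**Figure D2:**
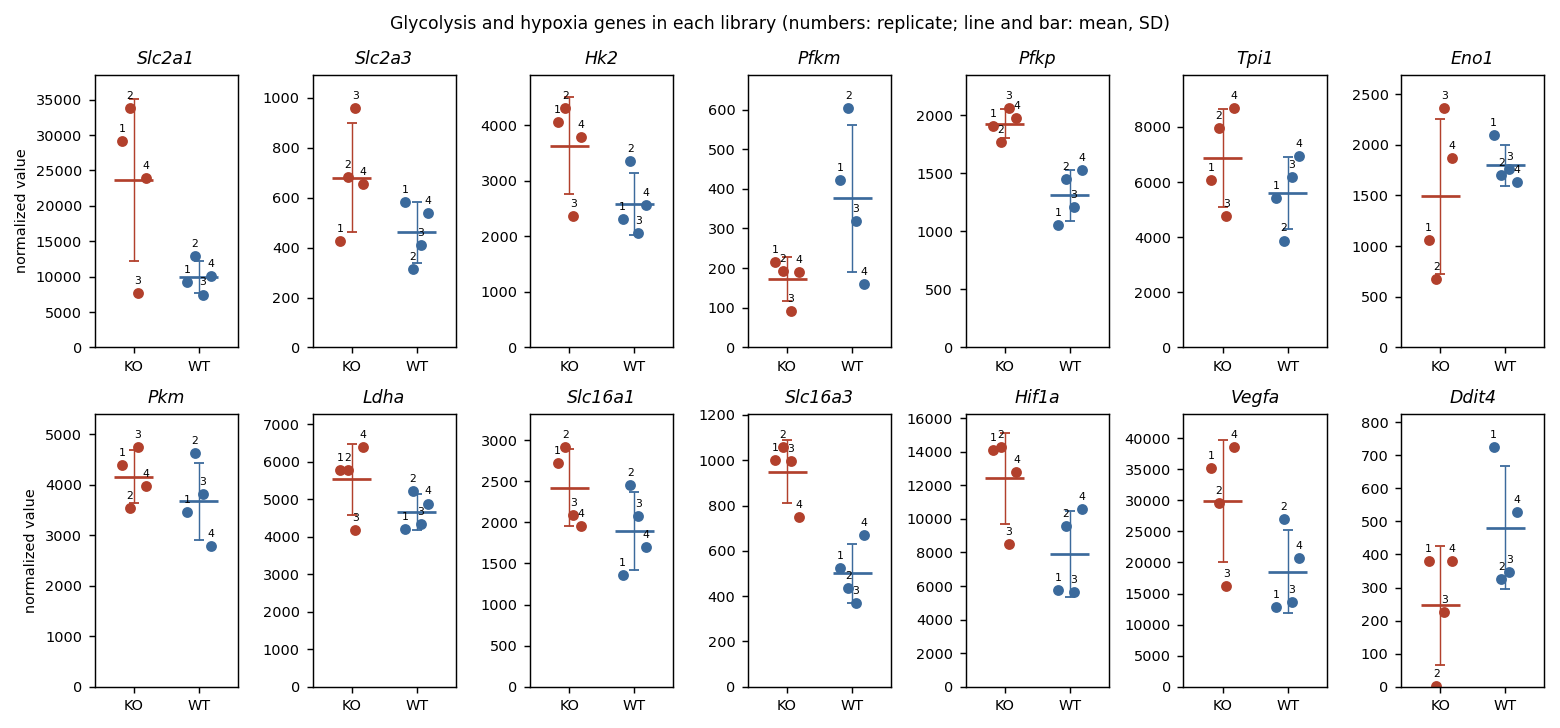
Normalized values of 14 members in each library (linear axes from 0), KO left of WT, with a line at the mean, a bar for the SD and the replicate number beside each point. Slc16a3 and Pfkp are the members whose groups do not overlap, and KO library 3 sits among the WT libraries for Slc2a1, Hif1a and Vegfa.

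Among the 10 upper glycolysis genes, 5 had positive and 5 negative differences, and the median was 0.041, which became -0.062 without KO replicate 4 and 0.20 with array weights. Hk2, the inducible hexokinase that traps glucose by phosphorylation (ENSMUSG00000000628, chr6:82702006-82751435), had 4064, 4312, 2365 and 3797 in KO libraries, against 2319, 3357, 2063 and 2572 in WT libraries. KO libraries 1, 2 and 4 were above every WT library and KO library 3 was not (log2 0.48, SE 0.24, 95% interval -0.021 to 0.99, limma adjusted p = 0.760). Phosphofructokinase, which commits sugar to glycolysis, has liver, muscle and platelet isoforms, and their differences had different signs. The platelet form Pfkp (ENSMUSG00000021196, chr13:6629804-6698813) had 1906, 1768, 2063 and 1981 in KO libraries, against 1055, 1450, 1213 and 1532 in WT libraries. The KO values were close together and all above the WT values (log2 0.57, SE 0.24, 95% interval 0.06 to 1.08, limma adjusted p = 0.730). The muscle form Pfkm (ENSMUSG00000033065, chr15:97990470-98030332) had 215, 194, 92.2 and 189 in KO libraries, against 421, 604, 320 and 161 in WT libraries. WT libraries 1, 2 and 3 were above every KO library and WT library 4 was not (log2 -1.04, SE 0.63, 95% interval -2.36 to 0.28, limma adjusted p = 0.770). Pfkm was under 3 fragments in 3 libraries (KO 1, 2 and 3), and in KO library 2 it was worth little more than 1. The liver form Pfkl overlapped between groups, with 414 to 875 in KO libraries and 534 to 901 in WT libraries (log2 -0.18, SE 0.36).

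Tpi1, triosephosphate isomerase (ENSMUSG00000023456, chr6:124787549-124791259), had the highest mean of the upper glycolysis genes over the 8 libraries. Its values were 6084, 7947, 4777 and 8687 in KO libraries, against 5430, 3880, 6200 and 6947 in WT libraries, and the groups overlapped (log2 0.29, SE 0.23, limma adjusted p = 0.809). The remaining upper genes lay between -0.35 and 0.16 on the log2 scale. They were Hk1, the constitutive hexokinase; Gpi1, which isomerises glucose phosphate; Pfkfb3, which makes the activator of phosphofructokinase; and the aldolases Aldoa and Aldoc. For Aldoa and Gpi1 the 95% intervals, -0.32 to 0.54 and -0.50 to 0.45, leave room for changes in either direction. Aldoc had 1.10 in KO library 2 and 15.1 in WT library 2, under 1 fragment in both, and its SE was 1.69. A second row named Aldoa (ENSMUSG00000114515) had 23.7 in WT library 3, 4.73 in WT library 4 and 0 in the other 6 libraries, and with a mean of 3.55 it was not tested.

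The 6 lower glycolysis genes had a median difference of -0.14 (-0.054 without KO replicate 2), with 2 above 0, and none reached an unadjusted p under 0.05. Pkm, pyruvate kinase (ENSMUSG00000032294, chr9:59563651-59586658), had 4381, 3536, 4740 and 3980 in KO libraries, against 3469, 4622, 3823 and 2782 in WT libraries. The highest library was in the KO group and the lowest in the WT group, with overlap between (log2 0.19, SE 0.21, limma adjusted p = 0.850). Eno1, the main enolase (ENSMUSG00000063524, chr4:150321178-150333336), had 1059, 676, 2363 and 1866 in KO libraries, against 2093, 1705, 1763 and 1632 in WT libraries. KO libraries held both the highest and the lowest value, and their SD of 764 exceeded the 204 of the WT libraries (log2 -0.42, SE 0.33, 95% interval -1.11 to 0.26, limma adjusted p = 0.797). The difference of Eno1 was -0.099 without KO replicate 2 and -0.70 without KO replicate 3. Gapdh, Pgk1 and Pgam1, which carry triose phosphate on to phosphoglycerate, differed by -0.22, 0.024 and -0.063 on the log2 scale with SEs of 0.28, 0.22 and 0.25. Gapdh is often used as a reference gene, and its values here were 1277 to 2223 in KO libraries and 1329 to 2730 in WT libraries. Eno2, the neuronal enolase, was under 1 fragment in 6 of the 8 libraries, at 36.1, 2.20, 0 and 0 in KO and 113, 0, 34.6 and 0.788 in WT, and its SE was 2.10.

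All 4 genes of the lactate and pyruvate branch had positive differences, with a median of 0.30. Slc16a3 (MCT4, ENSMUSG00000025161, chr11:120839306-120851694) exports lactate from glycolytic cells. It had 999, 1057, 996 and 748 in KO libraries, against 526, 435, 371 and 669 in WT libraries, so the groups did not overlap, and KO library 4 and WT library 4 were the nearest. Means with SD over 4 libraries were 950 ± 137 (KO) and 500.3 ± 129 (WT), a 1.93-fold ratio (log2 0.95, SE 0.34, 95% interval 0.24 to 1.65, limma adjusted p = 0.591). It is a gene of moderate level, and its KO library 2 value of 1057 stood for few fragments at 153 each. Slc16a1 (MCT1, ENSMUSG00000032902, chr3:104545984-104565778), which moves lactate either way, had 2726, 2911, 2085 and 1955 in KO libraries, against 1363, 2453, 2071 and 1697 in WT libraries. KO libraries 1 and 2 were above every WT library, and the others were mixed (log2 0.37, SE 0.25, limma adjusted p = 0.773). Ldha, the lactate dehydrogenase subunit that favours lactate (ENSMUSG00000063229, chr7:46490899-46505051), had 5792, 5792, 4174 and 6389 in KO libraries, against 4211, 5213, 4344 and 4890 in WT libraries. KO library 3 was the lowest of the 8 and the other KO libraries were the highest (log2 0.24, SE 0.20, 95% interval -0.19 to 0.66, limma adjusted p = 0.826). Pdk1, which inhibits pyruvate dehydrogenase, differed by 0.14 (SE 0.23).

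Of the oxygen sensing genes, Hif1a (ENSMUSG00000021109, chr12:73948149-73994304) had 14079, 14258, 8497 and 12782 in KO libraries, against 5775, 9553, 5622 and 10591 in WT libraries. KO libraries 1, 2 and 4 were above every WT library, while KO library 3 was below WT libraries 2 and 4. Means with SD over 4 libraries were 12404 ± 2687 (KO) and 7885 ± 2561 (WT), with a log2 fold change of 0.68 (SE 0.24, 95% interval 0.18 to 1.18, limma adjusted p = 0.580). Hif1a is controlled largely through protein stability, which these values do not measure. The other alpha subunit, Epas1, had 487, 251, 170 and 92.4 in KO libraries, against 435, 295, 176 and 503 in WT libraries, with overlap (log2 -0.64, SE 0.63). Their partner Arnt differed by 0.039 (SE 0.25) and the prolyl hydroxylase Egln3, itself a target of the factor, by -0.037 (SE 0.37).

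The 6 hypoxia-induced genes had a median of 0.080, with 5 above 0, of which Bnip3 and P4ha1 were below 0 with scaling to the sum without small RNAs. The median was -0.21 without KO replicate 1 and 0.19 without KO replicate 3, so its sign rests on single libraries. Vegfa, the angiogenic growth factor (ENSMUSG00000023951, chr17:46327919-46343295), was the most abundant member. It had 35190, 29644, 16258 and 38529.5 in KO libraries, against 12792, 26999.5, 13585 and 20739 in WT libraries. The same 3 KO libraries were above every WT library and KO library 3 lay among them (log2 0.69, SE 0.28, 95% interval 0.11 to 1.26, limma adjusted p = 0.679). Without KO replicate 3, Vegfa was at 0.96 (limma adjusted p = 0.125) and Hif1a at 0.85 (adjusted p = 0.187), and neither was called. Ddit4, an inhibitor of mTORC1 signalling that hypoxia and other stresses raise (ENSMUSG00000020108, chr10:59785491-59787656), had 380, 1.10, 225 and 381 in KO libraries, against 724, 325, 347 and 529 in WT libraries. KO library 2 was at about 1 read, far below 1 fragment, and the other libraries overlapped (log2 -2.32, SE 1.19, 95% interval -4.81 to 0.16, limma adjusted p = 0.767). Without KO replicate 2 the difference was -0.51. Bnip3, a mitophagy receptor, Ero1a, an oxidase of protein folding, and P4ha1, a collagen prolyl hydroxylase, differed by 0.041, 0.12 and 0.041 on the log2 scale, with SEs of 0.27, 0.22 and 0.23. Bnip3 was at 10730 in KO library 1, the highest of the 8, and at 3288 in KO library 3, the lowest. Ankrd37, a hypoxia-inducible ankyrin repeat gene, ranged over 1.10 to 331 in KO libraries and 5.58 to 97.5 in WT libraries (SE 1.73).

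Paralogs were set against each other inside each library, which removes library scaling except where a value is near 0. There the added 1 weighs in, as for Eno2 and Aldoc in some libraries. The mean log2 ratio of Pfkp to Pfkl was 1.61 ± 0.40 in KO libraries and 0.86 ± 0.30 in WT libraries (SD, n = 4 each), a difference of 0.75 (exact two-sided permutation p = 0.0571, 0.300 after Benjamini-Hochberg adjustment over 7 pairs). Epas1 to Hif1a was -5.85 ± 0.93 in KO and -4.53 ± 0.61 in WT, a difference of -1.32 (exact permutation p = 0.0857, adjusted p = 0.300). The ratio of Slc2a1 to Slc2a3 was 4.98 ± 1.37 in KO and 4.44 ± 0.62 in WT, with 2.99 in KO library 3 the lowest of all (exact permutation p = 0.486). The ratios Hk2 to Hk1, Slc16a3 to Slc16a1, Aldoc to Aldoa and Eno2 to Eno1 differed by 0.62, 0.58, -0.46 and -1.06, with exact permutation p between 0.229 and 0.971. The groups overlapped for each of the 7 ratios, and none passed the adjustment.

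**Figure D3:**
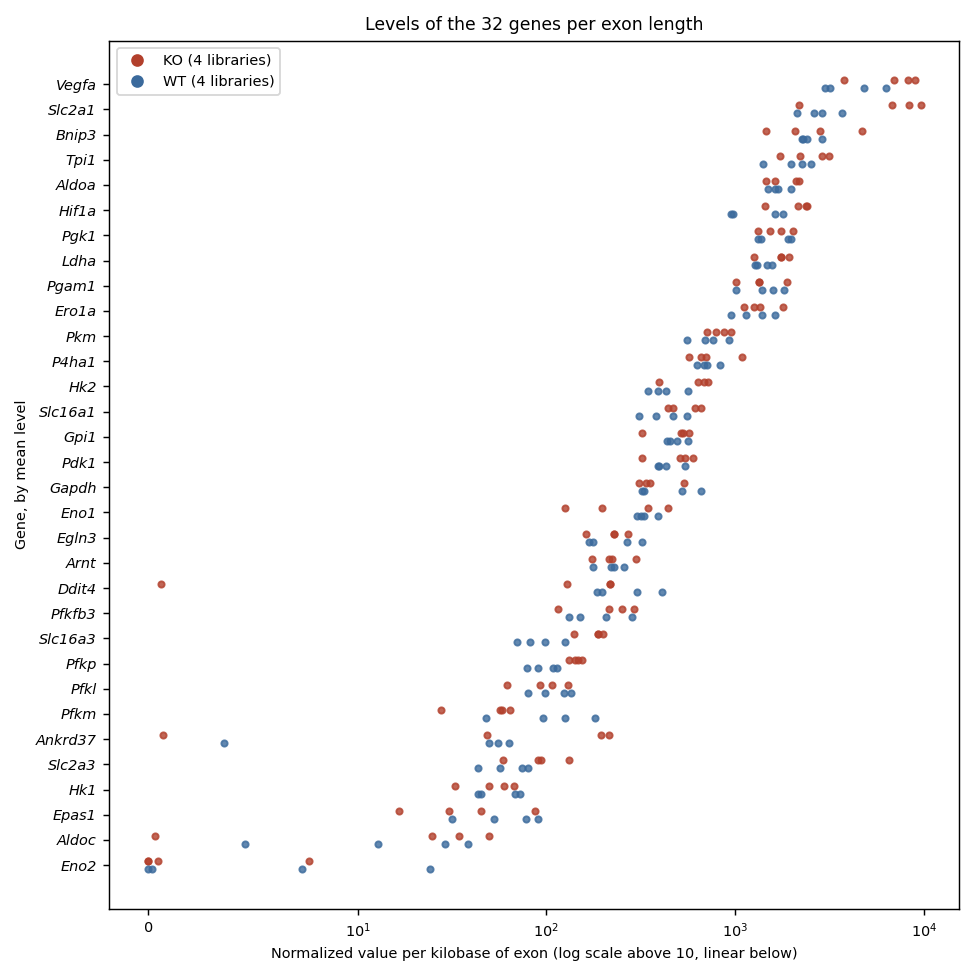
Normalized value per kilobase of exon for each member, one point per library (KO points above WT points in each row), with genes ordered by their mean over the 8 libraries. The axis is logarithmic above 10 and linear below, with Vegfa and Slc2a1 at the top and Eno2 at the bottom.

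Levels can be set between genes only per length, here as the mean normalized value per kilobase of exon over the 8 libraries, with KO and WT group means where they matter. Vegfa came first at 5652 per kilobase (6979 in KO, 4324 in WT) and Slc2a1 followed at 4791 (6745 in KO, 2837 in WT). The SDs over 8 libraries were 2303 and 3014, so the order of these genes is not fixed. Bnip3 (2616), Tpi1 (2268), Aldoa (1774), Hif1a (1721), Pgk1 (1654), Ldha (1541), Pgam1 (1422) and Ero1a (1330) came next. Each of these lay within 1 SD of its neighbour by the larger of the pair's SDs, and Bnip3 (SD 967) reaches down to Pgk1. Pkm and P4ha1 were at 783 and 735, and Gapdh was at 422. The low end held Hk1 (54.9), Epas1 (53.9), Aldoc (24.3) and Eno2 (4.97). Of the paralogs, Slc2a1 was far above Slc2a3 (78.7), Hk2 (520) above Hk1, Hif1a above Epas1, and Slc16a1 (487) above Slc16a3 (136). On this scale the phosphofructokinases Pfkp (121), Pfkl (104) and Pfkm (82.2) lay close, each within 25.6, the smallest of their SDs, of the next. The length merges all annotated exons, with 13401 bases for Pfkp, 6675 for Pfkl and 3340 for Pfkm. Before division by it their means were 1621, 692 and 275, so the closeness depends on that length. The transcripts in use were not examined, and this limit holds for the whole order.

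Members were also read by level. Of the 21 members with a mean of at least 1000, 17 were above 0 (81.0%), with a median of 0.14, while 51.3% of the 3515 tested genes at that level were above 0, with a median of 0.011. Of the 11 members below it, 3 were above 0 (Slc2a3, Slc16a3 and Ankrd37) and the median was -0.18, while 41.2% of the 12605 tested genes under 1000 were above 0, with a median of -0.23. In members and in all genes the share above 0 was thus larger at the higher level, but all genes of that level were near even. The difference between levels was not tested. Of the 17, Pgk1, Bnip3, Arnt and P4ha1 were close to 0 and were below it with scaling to the sum without small RNAs. Among the 21 abundant members, 16 were above their own mean over the 8 libraries in KO library 2, 16 in KO library 4 and 14 in KO library 1, but 5 in KO library 3. In WT libraries 1 to 4 the counts were 3, 10, 5 and 12. The median log2 deviation of these members was -0.27 in KO library 3 and -0.22 in WT library 1, against -0.081 and 0.019 for all genes of that level. KO library 3 thus had few abundant members above their mean, as WT libraries 1 and 3 did, although its Mtdh value of 2538 was the lowest of the 8. Its median deviation was also the lowest of the 8, with -0.0058, -0.11 and 0.079 in WT libraries 2, 3 and 4.

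**Figure D4:**
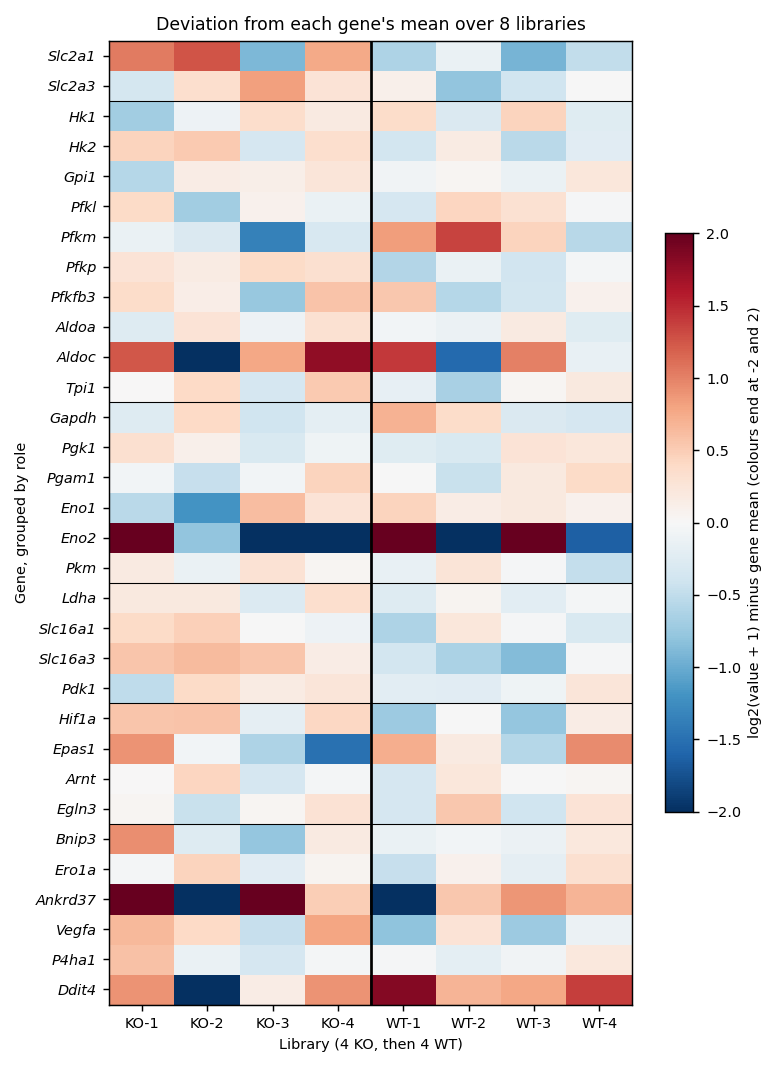
Deviation of log2(value + 1) from the gene's mean over the 8 libraries, with one column per library (KO 1 to 4, then WT 1 to 4) and members grouped by role; colours end at -2 and 2. KO libraries 1, 2 and 4 are above the mean for Slc2a1, Hif1a and Vegfa while KO library 3 is below it, and Aldoc, Eno2, Ankrd37 and Ddit4 vary most between libraries.

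Markers of several cell types were present, and none of the marker genes in the table was at 0 in every library. The summed value of 12 macrophage and monocyte genes was 244631, 151640, 109092 and 206389 in KO libraries, against 287204, 236995, 234968 and 181733 in WT libraries, and 11 of the 12 genes had a negative difference (median -0.46). The 12 CD8 T cell genes summed to 24313, 39289, 55044 and 42817 in KO libraries, against 24601, 9066, 27805 and 32899 in WT libraries, with 11 of 12 differences above 0 (median 0.74). KO library 3 had the lowest macrophage and the highest T cell sum. The macrophage gene Lyz2 made up most of the macrophage sum, with 75242 in KO library 3. Per kilobase of exon, the 11 macrophage genes other than Lyz2 summed to 23882, 18017, 14267 and 24230 in KO libraries, against 28553, 22700, 23028 and 19753 in WT libraries. On the same scale the T cell genes summed to 8749, 14141, 19545 and 15436 in KO libraries, against 9573, 3678, 10786 and 12722 in WT libraries. The macrophage sum without Lyz2 was the higher one in 7 libraries and the lower one in KO library 3, so libraries labelled as sorted CD8 T cells held macrophage RNA throughout. Dendritic cell genes (6 of 6) summed to 1223 to 2747 in KO and 634 to 1077 in WT libraries, with no overlap of the sums. Of the 5 tested, 4 were above 0, Zbtb46 was at -0.72 (SE 1.32), and 0 passed the adjusted limma test. Flt3 was under 1 fragment in 5 libraries and Clec9a in 3. Fibroblast genes (7 of 7) summed to 3622 to 22089 in KO libraries and 8038 to 19522 in WT libraries, and tumour and epithelial genes (4 of 6 in the table) to 1043 to 1789 in KO and 770 to 2188 in WT. Endothelial genes (5 of 5) summed to 650 to 1104 in KO and 707 to 1843 in WT libraries. Neutrophil genes (3 of 6) summed to 107 to 517 in KO and 103 to 292 in WT, and B cell genes (2 of 4) to 1.10 to 216 in KO and 42.8 to 164 in WT. The sum of Cd4 and Foxp3 lay between 11.01 and 145 in the KO libraries and between 0 and 169 in the WT libraries. Red cell genes (4 of 5) summed to 0 to 1.30 in KO and 101 to 256 in WT libraries. Glycolysis and hypoxia genes are used by many of these cells, and the part of the cell mix in the member differences was not tested.

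**Figure D5:**
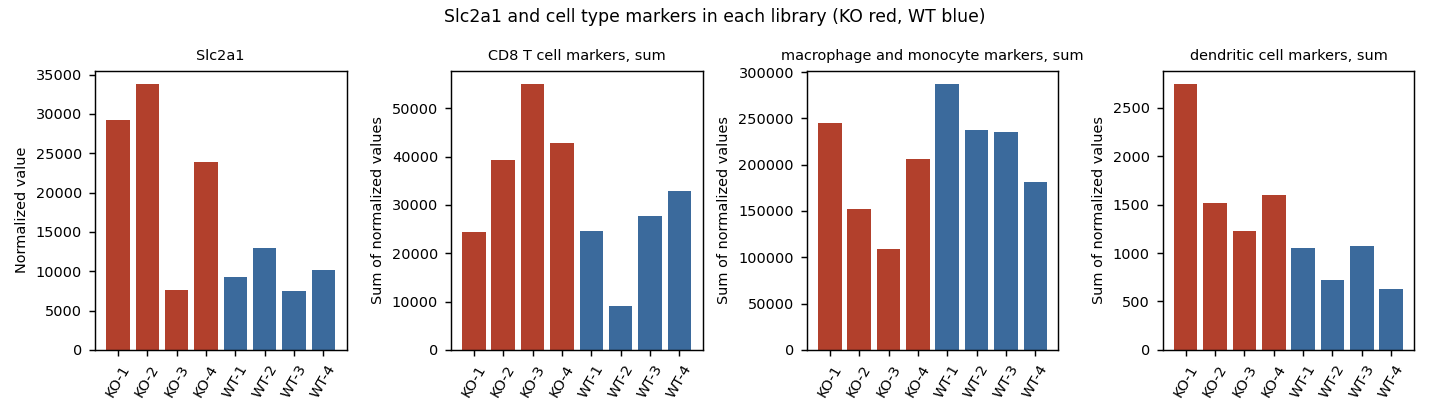
Bars from 0 of the normalized value of Slc2a1 and of the summed CD8 T cell, macrophage and monocyte, and dendritic cell markers in each library, KO left of WT. KO library 3 has the highest T cell sum (55044), the lowest macrophage sum (109092) and the lowest Slc2a1 value of the KO libraries (7636).

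How the reads had been assigned differed between members. Counts of whole reads, within 0.05 reads, were found in all 8 libraries for 16 members and in 4 to 7 libraries for Pfkp, Pdk1 and P4ha1. For 9 members (Gpi1, Aldoa, Tpi1, Gapdh, Pgk1, Pgam1, Eno1, Pkm and Ldha) the values were whole in 0 to 3 libraries. Fractions can arise when reads are split between near-identical sequences, and the values of these 9 enzymes are uncertain to the extent that this was done. Slc2a1, Hif1a, Bnip3 and Vegfa exceeded 10000 in a library, too high for the step to be read. Slc16a3, Hk2, Slc2a3 and Ddit4 were among the 16 with whole reads.

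Of 85 further genes of these pathways, 79 were in the table and 76 were tested. None passed the limma test at an adjusted p of 0.05, with 2 higher and 4 lower at an unadjusted p under 0.05, and the median difference was -0.034. Among 25 further hypoxia-induced genes, 14 were above 0 and the median was 0.20, with 1 higher and 2 lower at an unadjusted p under 0.05. Bhlhe40, a transcriptional repressor of the clock family, had 15131, 22700, 10383 and 17292 in KO libraries, against 6880, 10446, 5882 and 8539 in WT libraries. KO library 3 was again the lowest KO library and lay just under WT library 2, the others being above every WT library (log2 1.02, SE 0.24, limma adjusted p = 0.106). Bhlhe40 passed with a pseudocount of 10 (limma adjusted p = 0.0453), quantile scaling (0.0392), array weights (0.00398), robust eBayes (0.0280) and without KO replicate 3 (0.0133). It did not pass when any other single library was left out. Limma adjusted p then ran from 0.0871 (without WT replicate 4) to 0.509 (without WT replicate 1). The lower genes, named after their values were seen, were Plod1, a collagen lysyl hydroxylase, and Car9, a carbonic anhydrase and classical hypoxia target. Plod1 had 1142, 416, 771 and 924 in KO libraries, against 1737, 2048, 1456 and 1221 in WT libraries, without overlap (log2 -1.05, SE 0.32, limma adjusted p = 0.367). Car9 had 169.9, 404, 97.4 and 182 in KO libraries, against 772, 1355, 411 and 322 in WT libraries, where KO library 2 overlapped WT library 4 (log2 -1.70, SE 0.57, limma adjusted p = 0.515). Car9 was under 3 fragments in 3 libraries (KO 1, 2 and 3) and Plod1 in 1 (KO 2), so these KO values rest on few molecules. The chemokine receptor Cxcr4, the most abundant of that list, differed by -0.040. Of 14 further glycolysis genes tested, 5 were above 0, with a median of -0.55. The muscle enolase Eno3 had 137, 2.20, 116 and 234 in KO libraries, against 477, 610, 386 and 201 in WT libraries (log2 -2.72, SE 1.10, limma adjusted p = 0.684), with KO library 2 under 1 fragment. Adpgk, an ADP-dependent glucokinase, differed by 0.14.

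The routes that branch from glycolysis held no gene past the adjusted limma threshold. The 7 pentose phosphate genes had a median of 0.038, with Rpe, a pentose phosphate epimerase, at -0.44 (SE 0.28) and Pgd, phosphogluconate dehydrogenase, at -0.038. Of 8 glycogen genes tested, 2 were above 0. Ugp2, which makes the glucose donor of glycogen, differed by -0.049. Of 12 genes for the uptake and use of pyruvate in the mitochondrion, 5 were above 0, with a median of -0.20. The beta subunit of pyruvate dehydrogenase, Pdhb, had 1158, 1123, 1030 and 1094 in KO libraries, against 1236, 427, 664 and 524 in WT libraries. WT library 1 was the highest of the 8 and the other WT libraries were the lowest (log2 0.75, SE 0.34, limma adjusted p = 0.732). The alpha subunit Pdha1, which works in the same complex, was at -0.66 (SE 0.37), and at -0.17 without KO replicate 2. Of 10 further oxygen sensing genes tested, 6 were above 0, with Cited2, which competes with the factor for a coactivator, at -0.54 (SE 0.27, limma adjusted p = 0.764).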

How the data were processed

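RNA-seq of 8 sorted samples, 4 per host genotype, was used. Per the labels' protocols, ribosomal RNA was depleted before PrepX library construction. The authors used Partek, STAR 2.7.8a and DESeq2 on mm39, per the submitters' processing notes, which give no role for each, and strand is not given in the sources used here. As deposited, the unit is a signal: estimated reads per gene after division by DESeq2 size factors by the authors, going by the file's name. Of values worth 500 reads or less, 81.7% to 88.1% were whole multiples of 1 read (tolerance 0.02), so whole reads were not recovered and no count test was run.

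Values were taken as log2(value + 1) without rescaling, and genes averaging 10 or more were fitted in limma 3.58.1 (R 4.3.3; lmFit, eBayes with trend) with KO against WT and no covariates. P-values were two-sided and adjusted by Benjamini-Hochberg over 16120 genes, with a threshold of 0.05. They rest on the spread between 4 biological replicates per group, which eBayes draws toward a trend over all genes. SEs, intervals and p-values from limma are thus not those of a gene's own replicates alone. The model was tested on simulated data. These were drawn independently per gene with equal spread in all libraries, leaving out uneven depth and cell mix. Exact permutation tests used the 70 arrangements of the libraries.

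The members, the other lists, the markers and the naming rule were chosen with earlier results of these data known. Values in each library are given for the 12 members with the smallest p and for the most abundant member of each role, and from each further list the gene with the smallest p and the most abundant one are named, except for 1 gene that is not reported here. Exon lengths came from GENCODE on GRCm38 by gene identifier, with all annotated exons of a gene merged. Gene positions are those of the table, on mm39. Alternatives covered the pseudocount, the minimum mean, 3 scalings, a replicate block, array weights, robust eBayes and leaving out each library.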

Additional observations from a re-analysis of the deposited data

Results flagged for a closer look

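Of 102 groups of 4 libraries examined, 7 held a library far from the other 3, and chance flags about 1 in 20 groups. In the KO group, library 2 was lowest for Aldoc (1.10, the others 80.5 to 163), Ddit4 (1.10, the others 225 to 381) and Eno3 (2.20, the others 116 to 234), each under the worth of 1 fragment there. The log2 ratio of Aldoc to Aldoa in that library was -11.52, with the others at -5.87 to -5.24. KO library 1 was lowest for Gpi1 (2079, the others 3354 to 3679) and KO library 3 for Pfkm (92.2, the others 189 to 215). In the WT group, library 1 was lowest for Ankrd37 (5.58, the others 76.6 to 97.5).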

How the results depend on the processing

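Main values were recomputed under 10 other settings and with each of the 8 libraries left out. The 38 genes called became 63 with a pseudocount of 10, 15 with a minimum mean of 50, 112 with array weights and 0 with a replicate block, and 7 (without KO replicate 4) to 70 (without WT replicate 4) over the omissions. Members called were 1 with array weights and 0 to 1 over the omissions, in both cases Slc2a1, without KO replicate 3 in the second. The median of the members stayed above 0, at 0.020 to 0.14 over the omissions. Mtdh missed the threshold with a pseudocount of 0.1 (log2 -1.23, limma adjusted p = 0.0740), a minimum mean of 50 (-1.23, limma adjusted p = 0.0945) and the replicate block (-1.23, limma adjusted p = 0.0627). Over the omissions Mtdh was at -1.38 to -1.04 and lost its call in 5 of 8, those without KO replicates 2, 3 and 4 and WT replicates 1 and 2. No clear pairing by replicate number was seen: deviations of same-numbered libraries correlated at 0.02 to 0.08, and those of other pairs at -0.09 to 0.10. These correlations include many genes of few fragments and cannot exclude a pairing, so the block was kept as an alternative.

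Signs turned for the following members and further pathway genes, and the cause was not tested. Most were near 0, but Aldoc (-0.35) and Ankrd37 (0.46) were not. With a pseudocount of 10 Aldoc was at 0.049. With quantile scaling Aldoc was at 0.86, Pgk1 at -0.043 and Bnip3 at -0.064. With scaling to the sum without small RNAs Pgk1 was at -0.025, Bnip3 at -0.0079, Arnt at -0.0098 and P4ha1 at -0.0077. With array weights Aldoc was at 0.43, Pgk1 at -0.17, Arnt at -0.030, P4ha1 at -0.012, Gpi1 at 0.11, Pgam1 at 0.043, Egln3 at 0.25, Pgd at 0.021 and Cxcr4 at 0.14. Omissions moved Hk1 over -0.28 to 0.072, Gpi1 over -0.12 to 0.16, Pfkl over -0.34 to 0.023, Pfkfb3 over -0.0082 to 0.44, Aldoc over -1.002 to 1.09, Pgk1 over -0.080 to 0.13, Pgam1 over -0.22 to 0.080, Arnt over -0.098 to 0.16 and Egln3 over -0.18 to 0.14. They moved Bnip3 over -0.26 to 0.31, Ero1a over -0.014 to 0.25, Ankrd37 over -0.47 to 2.10, P4ha1 over -0.15 to 0.16, Pgd over -0.16 to 0.040, Ugp2 over -0.19 to 0.045 and Cxcr4 over -0.23 to 0.21. The ratios Aldoc to Aldoa and Eno2 to Eno1 ran over -1.04 to 1.05 and -2.33 to 0.075.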
